A study of Mus musculus with 12 samples.

Results

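Uptake receptors let phagocytes and the endothelium of the liver take up lipoproteins, glycoproteins, microbes, antibody-coated particles and dead cells. Of the 40840 genes with a value in each file, 10 were chosen by name as scavenger and lectin uptake receptors. They were chosen with earlier results of these data known, and all 10 were found: Marco, Msr1, Scarb1, Colec12, Mrc1, Clec7a, Axl, Mertk, Fcgr1 and Fcgr4. They were followed in total RNA of the liver from 12 male mice, 3 in each of 4 groups. WT mice of the strain C57BL/6 (C57BL/6J in the study's methods) and Casp11-/- mice of the strain B6.129S4(D2)-Casp4tm1Yuan/J, which carry the knockout of the caspase-11 gene in all cells, were 8 to 10 weeks old at the start. They then received either normal chow diet (NCD) or high-fat diet (HFD, 20% fat by weight) for 12 weeks. The Casp11-/- HFD, Casp11-/- NCD, WT-HFD and WT-NCD groups keep the mouse numbers of the labels as replicate numbers. The labels name hepatic macrophages, whereas the study's methods describe the immune cell fraction of the liver with no sort for macrophages.

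The receptors belong to several families. Scavenger receptors bind modified lipoproteins and polyanions, and C-type lectins bind sugars of glycoproteins and fungi. The TAM kinases Axl and Mertk bind dying cells through bridging proteins such as Gas6, and Fc receptors bind IgG. In the liver, Kupffer cells, the resident macrophages of the sinusoids, and the sinusoidal endothelial cells beside them are the main scavenging cells, and some of these receptors are carried by both.

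Levels are given as TPM, a read density that is scaled to gene length and to a common total per library. All files shared a lowest value, 1.01 TPM, a floor at which a gene is not told from one with no reads. The study's methods state a target number of reads per sample, but the reads obtained for each library and gene are not in the values, so no counting error can be given. Differences are log2 fold changes of TPM + 1 from limma, with a standard error (SE) and a p adjusted over every gene in the fit (Benjamini-Hochberg), and a gene is said to have risen or fallen where that p was under 0.05. Adding 1 shrinks the fold change where TPM is low.

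WT-NCD replicate 3 stood apart from the other libraries. It listed 39677 genes over the floor where the remaining 11 listed 12940 to 18775, and its Pearson r with them was -0.27 to -0.07, against 0.85 to 0.99 among those 11, so the receptors' results are given with and without it. Casp11-/- NCD replicate 2 had 461 TPM of summed B cell markers, against 1328 to 1915 TPM in the 4 remaining NCD libraries, and the main counts are given without it as well. U3 RNA took 25.8% to 58.5% of the TPM in HFD libraries and 1.24% to 4.84% in the 5 NCD libraries other than WT-NCD replicate 3. A library with more U3 RNA leaves less of the common total for other genes, so the protein-coding genes were also rescaled to a common total of their own. Casp4, the gene of caspase-11, was at 5.60 to 15.6 TPM in WT libraries and at 2.56 to 15.2 TPM in libraries labelled Casp11-/-, of which 2 were within the WT range, Casp11-/- NCD replicate 3 at 15.2 TPM and Casp11-/- HFD replicate 2 at 8.68 TPM. The heading of the values of the latter also abbreviates the genotype unlike the headings of the other Casp11-/- libraries. TPM over a whole gene does not show which exons were read, so genotypes are given as labelled.

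Kupffer cell markers were present, with summed levels of 99.98 to 182 TPM in the 5 NCD libraries and 314 to 856 TPM in the 6 HFD libraries. The fraction held much else, with summed hepatocyte markers at 6727 to 25237 TPM and sinusoidal endothelial markers at 201 to 2650 TPM in the same 11 libraries. In such bulk samples, fewer cells of a type and less RNA per cell cannot be told apart, and this holds for every level below.

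The receptors differed in level by over an order of magnitude. By the median over the 11 libraries, Mrc1 was at 44.6 TPM, Clec7a at 37.0, Scarb1 at 20.4, Msr1 at 12.6, Fcgr4 at 12.5, Axl at 11.4, Mertk at 10.5, Colec12 at 4.76, Fcgr1 at 2.62 and Marco at the floor. The order was clear only in places. Clec7a was above Scarb1, Scarb1 above Msr1, and Mertk above Colec12 in 10 of 11 libraries each, whereas Mrc1 was above Clec7a in 7 of 11, Fcgr4 above Axl in 7, and Axl above Mertk in 7, so that these neighbours did not differ beyond their spread. Msr1 and Fcgr4 had nearly the same median, but Fcgr4 was the higher in 9 of 11.

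**Figure D1:**
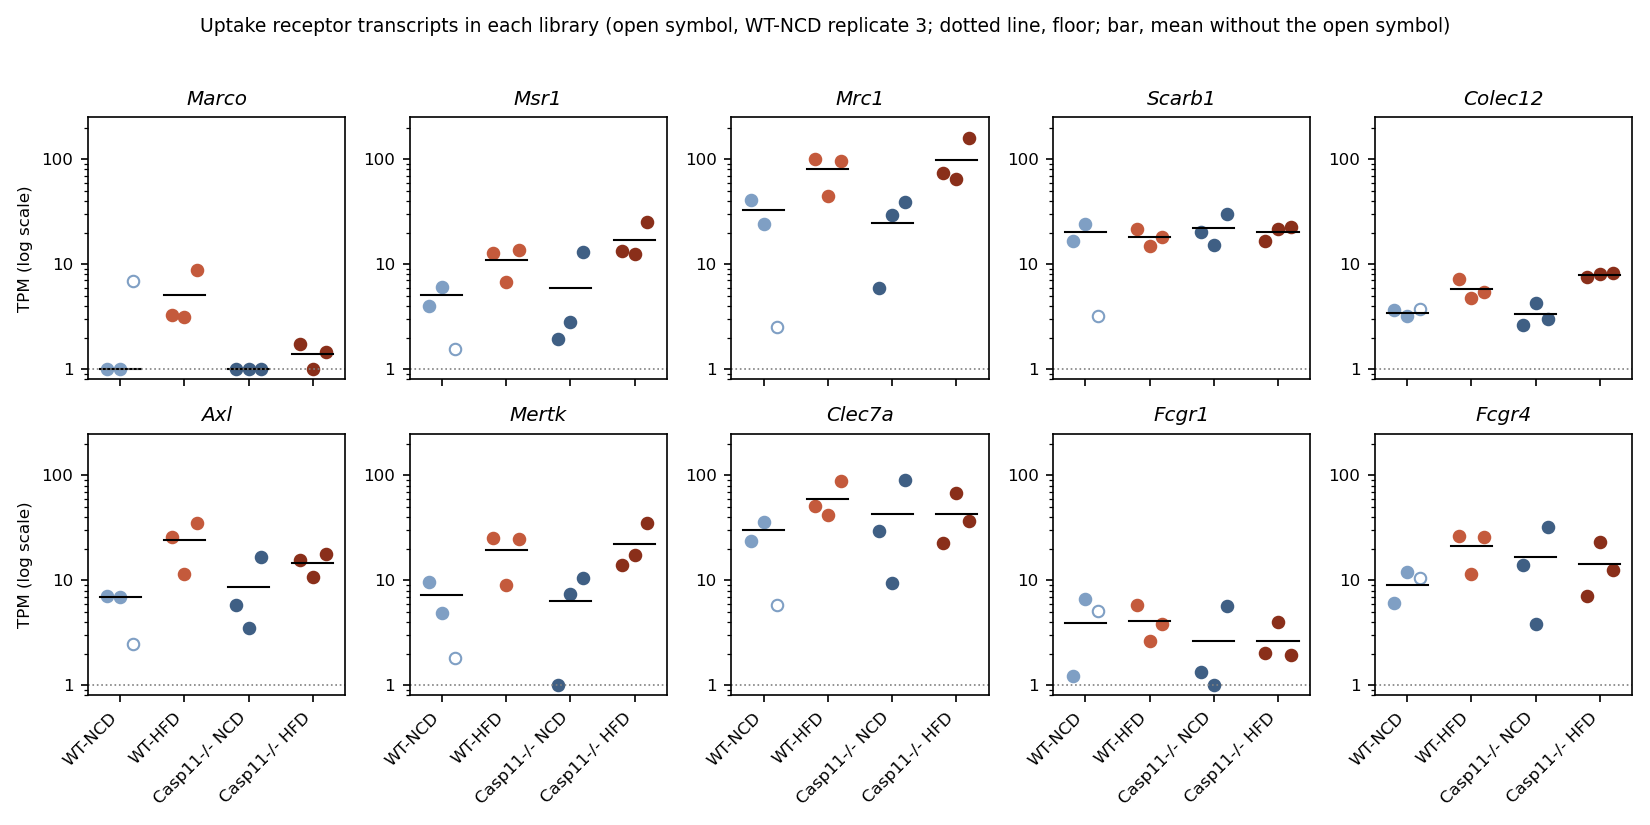
TPM of each receptor (log scale) in the 12 libraries by group, with WT-NCD replicate 3 as an open symbol, the floor as a dotted line and the mean of the other libraries of each group as a bar. In Mrc1 and Colec12 every HFD symbol lies above every NCD symbol, and in Scarb1 the groups lie at the same height. Marco leaves the floor in the open symbol and in the HFD libraries other than Casp11-/- HFD replicate 2.

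The question of the diet is answered by comparing HFD with NCD, averaged over the genotypes. Without WT-NCD replicate 3, Mrc1, Mertk, Msr1, Axl and Marco rose on HFD, by 0.87 to 1.71 on the log2 scale. Colec12, Clec7a, Fcgr4 and Fcgr1 were higher without passing the test, Scarb1 was lower without passing it, and 31.7% of all genes were higher. The 5 rises among 10 receptors stand beside 1.07% of all 17950 genes that rose in the same fit. The receptors were chosen with earlier results of these data known, and the study itself reports Marco and Mrc1 as increased by HFD. The comparison with all genes is therefore a description and not an independent test. With all 12 libraries none of the 10 passed, beside 0.041% of 19498 genes that rose, although all 10 were higher on HFD (14% of all genes were) and 5 had an unadjusted p under 0.05 (1.67% of all genes, counting those higher). The median log2 difference of the 10 was 0.85 without WT-NCD replicate 3, beside -0.39 for all genes, and 0.91 beside -0.61 with it. All 10 passed the filter of 3 libraries above the floor. Among the 11 libraries Marco passed it through HFD libraries alone, so its difference follows in part from the filter, and the other 9 receptors gave 4 rises.

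**Figure D2:**
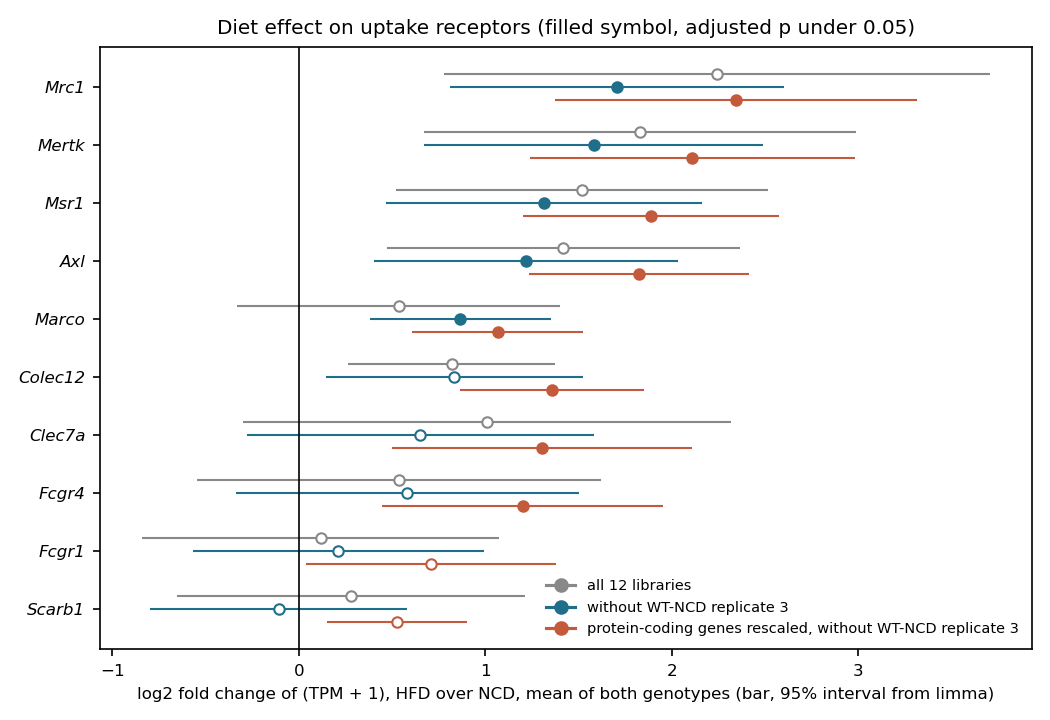
Log2 fold change of TPM + 1 for HFD over NCD, averaged over genotypes, for each receptor under 3 treatments of the data, with 95% intervals from limma and filled symbols for an adjusted p under 0.05. Mrc1, Mertk, Msr1 and Axl lie right of 0 in each, Scarb1 changes side, and 8 receptors are filled after rescaling of protein-coding genes without WT-NCD replicate 3.

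Mrc1, the macrophage mannose receptor, clears mannose-ending glycoproteins and collagen fragments and is also abundant on the sinusoidal endothelium. Its 3 WT-NCD libraries, in replicate order as everywhere below, had 41.3, 24.1 and 2.50 TPM, and those of WT-HFD had 100.3, 44.6 and 96.9 TPM. In Casp11-/- mice it was at 5.96, 29.1 and 39.4 TPM on NCD and at 73.7, 64.7 and 158 TPM on HFD. Every HFD library was thus above every NCD library, in both genotypes and across them. The rise on HFD was 1.71 ± 0.43 (log2, SE) without WT-NCD replicate 3, with an adjusted p of 0.0151 in limma, and the difference was 2.24 ± 0.66 with it (adjusted p = 0.187). Mrc1 spans chromosome 2 from 14229392 to 14332057 on the plus strand (GRCm38), and the microRNA gene Mir511 lies inside it on the same strand.

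RefSeq promoter windows, 250 bases before to 50 after a start site, were at hand for 7 of the 10 receptors. Those of Mrc1 and of Marco are shown because both genes passed the test, with matches to the motif GAGGAAG of the myeloid factor PU.1, on either strand, in capitals.
Mrc1 (GRCm38.p6, chr2:14229164-14229463, + strand): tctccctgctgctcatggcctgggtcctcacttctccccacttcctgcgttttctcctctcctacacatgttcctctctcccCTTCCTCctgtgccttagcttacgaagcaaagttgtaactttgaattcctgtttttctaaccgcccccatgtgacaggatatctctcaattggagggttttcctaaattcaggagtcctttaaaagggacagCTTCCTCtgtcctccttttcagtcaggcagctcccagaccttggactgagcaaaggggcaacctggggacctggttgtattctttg
Marco (GRCm38.p6, chr1:120504975-120505274, - strand): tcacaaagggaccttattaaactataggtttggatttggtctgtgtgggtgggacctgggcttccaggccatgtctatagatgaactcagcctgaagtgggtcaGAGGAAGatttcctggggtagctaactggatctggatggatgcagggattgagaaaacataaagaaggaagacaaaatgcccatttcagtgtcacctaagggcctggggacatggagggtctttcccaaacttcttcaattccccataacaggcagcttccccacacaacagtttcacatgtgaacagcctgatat
The Mrc1 window held 2 matches and the Marco window 1, and the windows held 3 and 0 CpG. A match to this motif was found in 5 of the 7 receptors with a window (Marco, Fcgr4, Mrc1, Fcgr1 and Axl), and in 13.6% of 32851 RefSeq windows of this length. The median of all windows was 7 CpG. A match describes letters only, and no binding was measured here.

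Marco, a collagen-containing scavenger receptor that binds bacteria and particles, was the receptor of lowest level. It did not leave the floor in replicates 1 and 2 of WT-NCD and reached 6.91 TPM in replicate 3, while WT-HFD had 3.29, 3.17 and 8.85 TPM. In Casp11-/- mice it was at the floor in all 3 NCD libraries and at 1.74, 1.01 and 1.47 TPM on HFD, the middle value being the floor. The only NCD library with Marco above the floor was therefore WT-NCD replicate 3, in which almost every gene was above it. Without that library the log2 rise averaged over genotypes was 0.87 ± 0.24 (SE, adjusted p = 0.0201), and within WT mice it was 1.48 ± 0.35 (adjusted p = 0.0191). Since every NCD library of these 11 was at the floor, the size of the rise depends on that floor. Both NCD groups then had no spread (SD 0 TPM), and limma shares 1 spread over the groups. The SE and p of these rises can therefore be too small. With WT-NCD replicate 3 the WT difference was 0.82 ± 0.55 and missed the test. Marco lies on chromosome 1 from 120474538 to 120505024 on the minus strand.

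Msr1, the class A scavenger receptor for modified LDL, was at 4.02, 6.10 and 1.56 TPM in WT-NCD and at 12.7, 6.70 and 13.8 TPM in WT-HFD. In Casp11-/- mice it was at 1.95, 2.79 and 13.1 TPM on NCD and at 13.5, 12.6 and 25.0 TPM on HFD. The WT groups did not overlap, and in Casp11-/- mice NCD replicate 3 reached the lowest HFD values. The rise was 1.32 ± 0.41 (log2, SE, adjusted p = 0.0326) without WT-NCD replicate 3, and the difference was 1.52 ± 0.45 with it (adjusted p = 0.189). Msr1 lies on chromosome 8 from 39581685 to 39642673.

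Colec12, a collectin with a membrane anchor that binds oxidised LDL and sugars, was at 3.63, 3.23 and 3.72 TPM in WT-NCD and at 7.22, 4.76 and 5.43 TPM in WT-HFD. The Casp11-/- libraries had 2.65, 4.32 and 3.01 TPM on NCD and 7.54, 8.08 and 8.23 TPM on HFD. All HFD values lay above all NCD values, WT-NCD replicate 3 included. Even so the difference of 0.82 ± 0.25 with all libraries and of 0.83 ± 0.33 without WT-NCD replicate 3 missed the test (adjusted p = 0.195 and 0.076). Several short genes lie inside Colec12 in GENCODE, and how the counting treated them is not given in the sources used here.

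Scarb1, the HDL receptor of hepatocytes and other cells, showed no shift with the diet beyond its spread before rescaling of protein-coding genes. It was at 16.7, 24.3 and 3.22 TPM in WT-NCD and at 21.6, 14.9 and 18.3 TPM in WT-HFD. The Casp11-/- libraries had 20.4, 15.2 and 30.4 TPM on NCD and 16.7, 21.5 and 22.8 TPM on HFD. Apart from WT-NCD replicate 3, the groups overlapped throughout. The averaged difference was -0.11 (95% interval -0.80 to 0.58) without that library, 0.28 (-0.65 to 1.21) with it, and 0.53 (0.15 to 0.90) after rescaling of protein-coding genes without it, so its direction depended on the scaling, and none of these passed the test. Scarb1 lies on chromosome 5 from 125277087 to 125341094.

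A ratio of receptors within a library does not depend on the scaling. The ratio of Mrc1 to Scarb1, a pair chosen after the values were seen, was 2.99 to 6.93 in the 6 HFD libraries and 0.29 to 2.48 in the 5 NCD libraries, with no overlap, and 0.78 in WT-NCD replicate 3. Mrc1 by itself kept the diets apart and Scarb1 showed no shift beyond its spread before rescaling of protein-coding genes, so this ratio largely restates Mrc1. How many other gene pairs kept the diets apart was not counted. Ratios of Mertk to Axl, Mrc1 to Clec7a, Fcgr4 to Fcgr1 and Msr1 to Colec12 overlapped between diets.

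Axl and Mertk are receptor tyrosine kinases by which phagocytes recognise and engulf apoptotic cells. Their promoter windows are shown because both genes passed the test, with the PU.1 motif GAGGAAG, read on either strand, in capitals.
Axl (GRCm38.p6, chr7:25788684-25788983, - strand): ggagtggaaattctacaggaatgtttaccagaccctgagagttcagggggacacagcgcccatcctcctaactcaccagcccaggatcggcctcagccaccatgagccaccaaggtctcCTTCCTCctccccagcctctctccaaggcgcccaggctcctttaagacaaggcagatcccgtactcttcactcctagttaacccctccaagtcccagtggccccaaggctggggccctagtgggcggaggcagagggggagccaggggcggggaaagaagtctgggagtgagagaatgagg
Mertk (GRCm38.p6, chr2:128698665-128698964, + strand): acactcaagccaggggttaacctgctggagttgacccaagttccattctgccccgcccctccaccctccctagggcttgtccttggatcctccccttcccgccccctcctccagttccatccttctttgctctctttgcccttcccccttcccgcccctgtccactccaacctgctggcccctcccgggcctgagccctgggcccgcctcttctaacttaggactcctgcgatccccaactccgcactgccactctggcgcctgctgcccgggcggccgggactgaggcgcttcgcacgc
The Axl window held 1 match and 6 CpG, and the Mertk window held no match and 14 CpG, the most of the 7 receptors with a window. A motif of the AP-1 factors (TGANTCA) was found in none of the 7, and in 7.81% of all windows. The GAS motif of STAT factors (TTCNNNGAA) was found in Fcgr1 alone among the 7, and in 8.30% of all windows.

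Mertk was at 9.60, 4.86 and 1.80 TPM in WT-NCD and at 25.1, 9.08 and 24.6 TPM in WT-HFD. In Casp11-/- mice it was at 1.01 (just above the floor), 7.43 and 10.5 TPM on NCD and at 14.1, 17.5 and 35.1 TPM on HFD. The Casp11-/- groups did not overlap, and in WT mice HFD replicate 2 lay below NCD replicate 1. The rise was 1.58 ± 0.44 (log2, SE, adjusted p = 0.0225) without WT-NCD replicate 3, and the difference was 1.83 ± 0.53 with it (adjusted p = 0.183). Mertk spans chromosome 2 from 128698956 to 128802894 on the plus strand, with the antisense gene Gm14011 inside it, and whether the counting used strand is not given in the sources used here.

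Axl was at 7.07, 6.89 and 2.45 TPM in WT-NCD and at 25.7, 11.4 and 35.1 TPM in WT-HFD, so the WT groups did not overlap. The Casp11-/- libraries had 5.84, 3.53 and 16.6 TPM on NCD and 15.6, 10.7 and 18.0 TPM on HFD, where NCD replicate 3 lay among the HFD values. The rise averaged over genotypes was 1.22 ± 0.40 (log2, SE, adjusted p = 0.0374) without WT-NCD replicate 3, and the difference was 1.42 ± 0.43 with it (adjusted p = 0.193). Axl spans chromosome 7 from 25757273 to 25788705 on the minus strand.

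Clec7a encodes dectin-1, the lectin receptor for fungal beta-glucans, which signals through the kinase Syk. It was at 24.0, 35.8 and 5.82 TPM in WT-NCD and at 50.8, 41.9 and 88.0 TPM in WT-HFD, without overlap. The Casp11-/- libraries had 29.8, 9.43 and 89.5 TPM on NCD and 22.5, 67.9 and 37.0 TPM on HFD, where the groups overlapped fully. The averaged difference missed the test without WT-NCD replicate 3 (0.65 ± 0.45, adjusted p = 0.274) and with it (1.01 ± 0.59, adjusted p = 0.414). Clec7a lies on chromosome 6 from 129461591 to 129472779.

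Fcgr4 and Fcgr1 encode activating receptors for IgG, the latter of high affinity. Fcgr4 was at 6.12, 12.04 and 10.6 TPM in WT-NCD and at 26.6, 11.5 and 25.7 TPM in WT-HFD. Its Casp11-/- values were 14.1, 3.85 and 32.3 TPM on NCD and 7.09, 23.4 and 12.5 TPM on HFD, so the diets overlapped in both genotypes. Fcgr1 had 1.21, 6.71 and 5.14 TPM on NCD and 5.83, 2.62 and 3.81 TPM on HFD in WT mice, and 1.33, 1.01 and 5.66 TPM on NCD and 2.05, 3.97 and 1.94 TPM on HFD in Casp11-/- mice. It was at the floor in Casp11-/- NCD replicate 2, and no group stood clear of another. Without WT-NCD replicate 3 the averaged differences were 0.58 ± 0.45 for Fcgr4 (adjusted p = 0.316) and 0.21 ± 0.38 for Fcgr1 (adjusted p = 0.644), and with it 0.54 ± 0.49 and 0.12 ± 0.43 (adjusted p = 0.564 and 0.852). Fcgr4 lies on chromosome 1 from 171018920 to 171029761 and Fcgr1 on chromosome 3 from 96282909 to 96293969.

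The scaling decided how many receptors passed, and it left the direction of all but Scarb1 in the averaged diet effect. After rescaling of protein-coding genes, 5 of 10 passed with all 12 libraries (Mrc1, Mertk, Msr1, Axl and Colec12), beside 2.37% of 12491 genes that rose. Without WT-NCD replicate 3, 8 of 10 passed, all except Fcgr1 and Scarb1, beside 6.15% of 12104 genes. These 8 include Marco, which passed the filter of libraries above the floor through HFD libraries alone once that library was left out. Clec7a and Fcgr4 were then 1.30 and 1.20 higher on HFD (adjusted p = 0.0405 and 0.0432). The median of all genes moved from -0.39 to -0.10 with this scaling, and that of the 10 receptors from 0.85 to 1.33. Leaving out Casp11-/- NCD replicate 2 as well as WT-NCD replicate 3, on the original scale, gave 6 of 10, with Colec12 added (0.91, adjusted p = 0.00636), beside 2.44% of 17857 genes. Marco, which passed the filter in the same way, is among these 6.

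Within WT mice, 5 of 10 receptors had every HFD value above every NCD value with all libraries (Msr1, Mrc1, Colec12, Axl and Clec7a), beside 1.98% of all genes tested. Without WT-NCD replicate 3 there were 6, with Marco added, beside 14.3%. Marco passed the filter through HFD libraries alone there, and its NCD values were all at the floor. Within Casp11-/- mice there were 3 (Mrc1, Colec12 and Mertk), beside 2.08%. Across both genotypes 2 receptors, Mrc1 and Colec12, kept the diets apart, beside 0.231% with all libraries and 0.39% without WT-NCD replicate 3.

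By limma, none of the 10 passed in WT mice with all libraries (0.113% of genes called in either direction). Marco alone rose without WT-NCD replicate 3, where 24 of 17950 genes rose and 367 fell (2.18% called). Here and in the settings below, Marco passed the filter through HFD libraries alone once that library was left out. In Casp11-/- mice none passed with all libraries, where limma called no gene at all (0% of genes) and 1653 genes had an unadjusted p under 0.05. Leaving out WT-NCD replicate 3 gave none either, beside 1.1% of genes called. Other settings gave calls within a genotype. With protein-coding genes rescaled and that library left out, 4 of 10 receptors rose in Casp11-/- mice (Mrc1, Mertk, Msr1 and Colec12, adjusted p = 0.0304 to 0.0402). There 279 of 12104 genes rose and 94 fell (3.08% called). Axl and Marco rose in WT mice (adjusted p = 0.0374 each), where 50 of 12104 genes rose and 38 fell (0.727% called). With neither WT-NCD replicate 3 nor Casp11-/- NCD replicate 2, on the original scale, 3 rose in Casp11-/- mice (Mrc1, Mertk and Colec12, adjusted p = 0.00999 to 0.0176). There 541 of 17857 genes rose and 8226 fell, so that 49.1% were called. In the same setting Marco rose in WT mice, where 47 genes rose and 1032 fell (6.04% called). On the original scale without WT-NCD replicate 3 alone, the differences nearest to the threshold in Casp11-/- mice were those of Mrc1 (2.17 ± 0.58, adjusted p = 0.0639), Mertk (1.90 ± 0.59, adjusted p = 0.103) and Msr1 (1.67 ± 0.55, adjusted p = 0.113). The median of the 10 was 1.04 in WT and 0.64 in Casp11-/- mice without WT-NCD replicate 3, beside -0.27 and -0.51 for all genes.

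**Figure D3:**
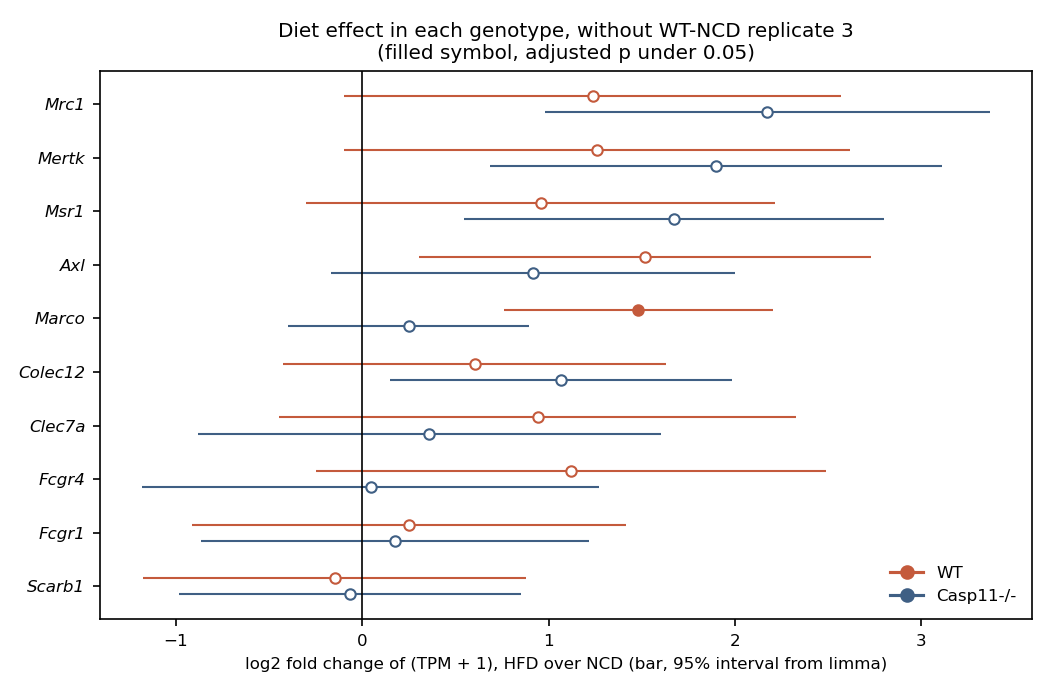
Log2 fold change of TPM + 1 for HFD over NCD in WT and in Casp11-/- mice without WT-NCD replicate 3, with 95% intervals from limma. The intervals of the genotypes overlap for every receptor, and Marco in WT mice (1.48) is the only filled symbol, which marks an adjusted p under 0.05.

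The question of the genotype is answered by comparing Casp11-/- with WT mice on each diet and by the interaction of diet and genotype. None of the 10 receptors passed in any of these, with all libraries or without WT-NCD replicate 3. Without it, limma called 0.0557% of genes on NCD, 0% on HFD (135 genes had an unadjusted p under 0.05) and 0.00557% in the interaction. With all libraries limma called no gene in these 3 comparisons (0% each), at an unadjusted p under 0.05 for 293 genes on NCD, 30 on HFD and 154 in the interaction. On NCD the differences of the receptors ran from -0.66 to 0.84 with all libraries and from -0.68 to 0.48 without WT-NCD replicate 3. On HFD they ran from -1.23 to 0.57.

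Marco, singled out after its values were seen, was the receptor with the lowest difference on HFD. Its values were 3.17 to 8.85 TPM in WT-HFD and 1.01 to 1.74 TPM in Casp11-/- HFD, the latter at or near the floor. How many of all genes kept the genotypes apart on HFD was not counted. The log2 difference was -1.23 (95% interval -2.46 to -0.01), with an unadjusted p of 0.0483 and an adjusted p of 1 in limma, and without WT-NCD replicate 3 the interval was -1.88 to -0.59, with an unadjusted p of 0.000605 and again an adjusted p of 1. Its interaction was -1.23 ± 0.47 without WT-NCD replicate 3 (adjusted p = 1) and -0.57 ± 0.78 with it (adjusted p = 0.796). Without WT-NCD replicate 3 both NCD groups of Marco were at the floor throughout (SD 0 TPM, against 3.24 TPM in WT-HFD). The 1 spread shared by the groups takes these in, so the SE, intervals and p of Marco in that fit can be too small. The intervals of the other receptors were wide, and a diet effect larger by 1 (log2) in Casp11-/- mice lay inside the interaction interval of 8 of the 10 without WT-NCD replicate 3, Fcgr4 and Marco being the exceptions.

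The receptors fell into sets by how their levels moved together over the 11 libraries, as a description of points that share one scaling and that differ in diet. Mrc1 and Mertk had a Pearson r of 0.99, Clec7a and Fcgr4 of 0.94, Msr1 and Mrc1 of 0.87, and Msr1 and Axl of 0.82. Scarb1 had an r of 0.01 with Mrc1 and of -0.26 with Marco, and 0.66 and 0.69 with Fcgr1 and Fcgr4.

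**Figure D4:**
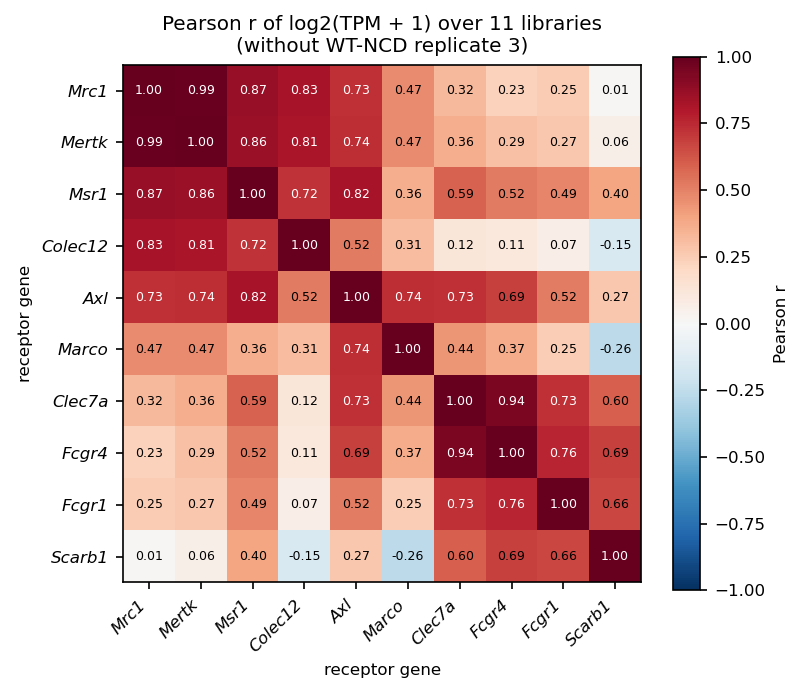
Pearson r of log2(TPM + 1) between receptors over the 11 libraries other than WT-NCD replicate 3, with both axes listing the 10 receptor genes. Mrc1, Mertk, Msr1 and Colec12 form a block of 0.72 to 0.99, Clec7a, Fcgr4 and Fcgr1 another of 0.73 to 0.94, and Axl has 0.52 or more with members of both.

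Among 11432 protein-coding genes compared, the genes with levels most like Mrc1 were Mertk (r = 0.99), Tek (0.99) and Adgrl4 (0.99), and those most like Mertk were Mrc1, Clec1b (0.98) and Itga9 (0.98). Axl was most like Il18bp (0.98), Sdc3 (0.97) and Hpgd (0.95). Msr1 was most like Plscr4, Plekhg1 and Bmpr2 (0.96 each), Colec12 most like Colec10 (0.93), Apoc1 (0.93) and Pmp22 (0.92), and Scarb1 most like Lrrc8b (0.95), Zswim6 (0.93) and 6430548M08Rik (0.93). The immune receptors had other neighbours. Clec7a was most like Oasl2 (0.98), Galc (0.95) and Trim30a (0.95), Fcgr4 most like Cd300ld (0.96), Galc (0.95) and Clec7a (0.94), and Fcgr1 most like Trim30c (0.92), Arrdc3 (0.89) and Pla2g4a (0.88). Marco, above the floor in 5 of the 11, was most like Cxcl13 (0.90), Gbp10 (0.84) and Cxcl9 (0.80).

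Markers of the scavenging cells moved with the diet as well. The summed level of 12 Kupffer cell markers did not overlap between diets. Without WT-NCD replicate 3 all 12 were higher on HFD and 7 rose, beside 31.7% of all genes that were higher and 1.07% that rose. The marker lists were chosen with earlier results of these data known. The study itself reports Clec4f, Cd5l, Folr2, Cd163 and Slc40a1 of this list as higher on HFD, so the rise of the list is no independent result. Of 13 sinusoidal endothelial markers 12 were higher and 8 rose, with summed levels of 201 to 975 TPM on NCD and 522 to 2650 TPM on HFD. With all libraries, 4 Kupffer cell markers and none of the endothelial markers passed, beside 0.041% of all genes that rose. Mrc1 and Mertk each had an r of 0.96 with the endothelial sum and 0.84 and 0.83 with the Kupffer cell sum, and Axl had 0.88 with the Kupffer cell sum and 0.69 with the endothelial sum. Scarb1 had 0.16 and -0.01 with the endothelial and the Kupffer cell sum. The part of either cell type in the rises was not tested.

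**Figure D5:**
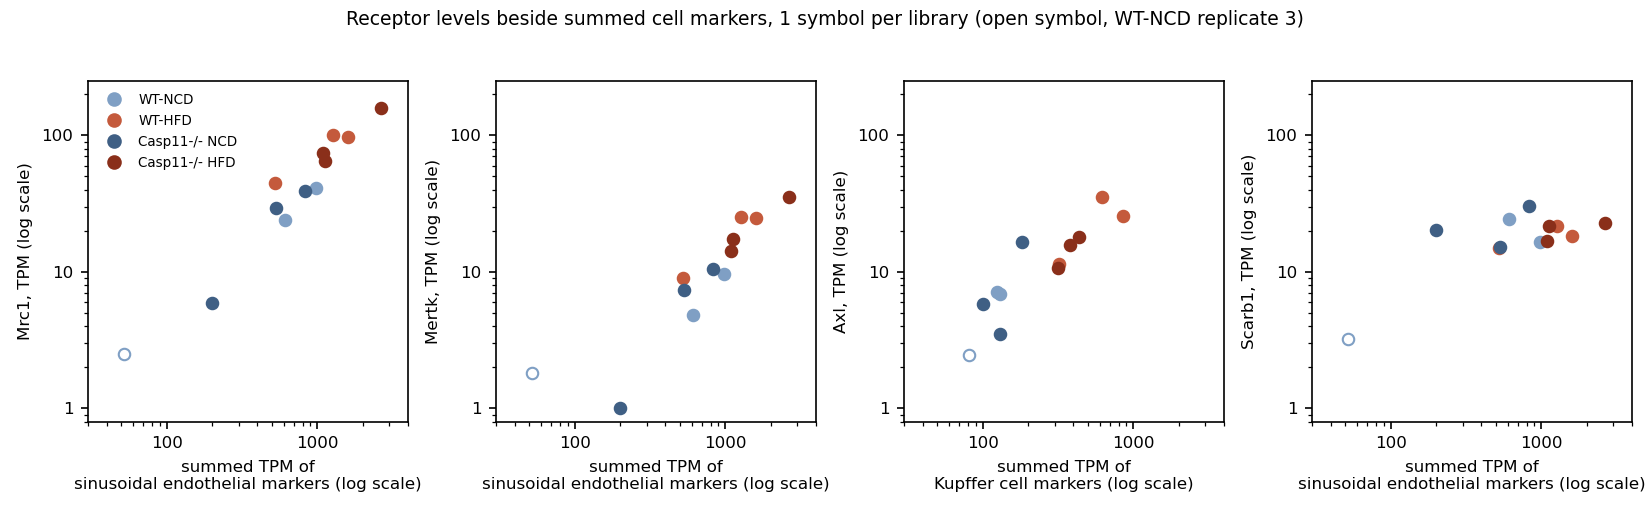
TPM of Mrc1, Mertk and Scarb1 against the summed TPM of 13 sinusoidal endothelial markers, and of Axl against the summed TPM of 12 Kupffer cell markers, both on log scales, with 1 symbol per library. Mrc1 and Mertk climb with the endothelial sum and Axl with the Kupffer cell sum, whereas Scarb1 stays between 14.9 and 30.4 TPM outside the open symbol.

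Lymphocyte markers moved the other way. All 8 B cell markers fell without WT-NCD replicate 3, from sums of 461 to 1915 TPM on NCD to 145 to 330 TPM on HFD. In that fit 8 of 11 T and NK cell markers fell, beside 17.3% of all genes. With all 12 libraries no marker of these 2 lists passed the test, although none was higher on HFD. Monocyte markers summed to 576 to 2038 TPM on NCD and 428 to 1253 TPM on HFD. Without WT-NCD replicate 3, 2 of 10 fell, which is near the 17.3% of all genes that fell. None of the 10 passed with all libraries. Stellate cell markers summed to 29.5 to 44.1 TPM on NCD (median 37.3) and 29.3 to 68.8 TPM on HFD (median 49.9), and of the 8 tested 6 were higher on HFD, none rose and 1 fell. Their sum had an r of 0.17 (Marco) to 0.82 (Msr1) with the 10 receptors over the 11 libraries, and their part in the receptors' differences was not tested. Of the 10 stellate cell markers Pdgfrb was at the floor in all 11 libraries and Colec11 in 10.

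The wider families of the receptors are given from fixed lists for the averaged diet effect without WT-NCD replicate 3, beside 1.07% of all genes that rose and 17.3% that fell. These lists too were chosen with earlier results of these data known. For the genes named each call that was lost when protein-coding genes were rescaled as well is given. Of 17 relatives of the scavenger receptors 14 were tested, 3 rose and 1 fell, with a median difference of 0.39. Cd5l, a secreted protein of Kupffer cells, rose by 3.69 ± 0.35 (log2, SE, adjusted p = 7.28e-07), from 4.28 to 8.53 TPM in NCD libraries to 55.3 to 186 TPM in HFD libraries. Cd36, the fatty acid and oxidised LDL receptor, rose by 1.88 ± 0.39 (adjusted p = 0.00279), and Cd163, the receptor for haemoglobin bound to haptoglobin, by 1.60 ± 0.31 (adjusted p = 0.00176). Cd6, a T cell receptor with scavenger receptor domains, fell by 1.18 (adjusted p = 0.0441), a call lost after rescaling (-0.62, adjusted p = 0.162). Cd5l was also among the Kupffer cell markers, as were Cd163, Clec4f and Timd4.

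Of 22 myeloid C-type lectins 19 were tested, 2 rose and none fell, with a median of -0.04. Clec4f, a lectin of Kupffer cells, rose by 2.93 ± 0.39 (adjusted p = 2.09e-05), from 4.01 to 12.1 TPM in NCD libraries to 24.8 to 98.3 TPM in HFD libraries. Clec4g, a lectin of the sinusoidal endothelium that was also on the endothelial list, rose by 1.39 ± 0.46 (adjusted p = 0.0404).

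Of 20 partners in the uptake of apoptotic cells 17 were tested, 5 rose and 1 fell, with a median of -0.05. The 3 chains of C1q, which tags dying cells, rose together by 2.17 to 2.21, with adjusted p of 0.000667 to 0.000843 in limma. Timd4, a phosphatidylserine receptor of resident macrophages, rose by 1.84 ± 0.40 (adjusted p = 0.00458). Elmo1, which drives engulfment through Rac1, fell by 1.21 (adjusted p = 0.0420), a call lost after rescaling (-0.57, adjusted p = 0.185).

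Of 14 relatives of the Fc receptors 12 were tested, none rose and 5 fell, with a median of -0.56. Fcer2a, the IgE receptor of B cells, fell by 2.41 (adjusted p = 0.000427), from 23.0 to 123 TPM on NCD to 6.47 to 16.9 TPM on HFD. Fcrla, an Fc receptor-like protein of B cells, fell by 2.21 and Fcrl1 by 1.50, the latter to -0.89 after rescaling (adjusted p = 0.0401). Fcer1a, the IgE receptor chain of mast cells and basophils, and Fcrl5 fell by 0.95 and 0.70, and both calls were lost after rescaling (-0.66 and -0.38, adjusted p = 0.0641 and 0.133).

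Of 15 genes of signalling below dectin-1 and the Fc receptors all were tested, none rose and 6 fell, with a median of -1.04. Syk, the kinase that both receptor types recruit, fell by 1.69 (adjusted p = 0.0148), a call lost after rescaling (-1.04, adjusted p = 0.052). Plcg2, the phospholipase below it, fell by 1.85 (adjusted p = 0.0103) and Blnk, an adaptor of B cells, by 2.39, and both stayed called after rescaling (-1.21 and -1.76). The phosphatases Ptpn6 and Inpp5d fell by 1.60 and 1.46, and both calls were lost after rescaling (-0.95 and -0.81, adjusted p = 0.0716 and 0.079). The 8 B cell markers fell beside the genes of these lists in this fit, and none of them passed with all 12 libraries. The part of B cells in the fall of the listed genes was not tested.

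With all 12 libraries, Cd5l (3.68), Clec4f (2.97) and the C1q chains (2.11 to 2.31) rose on HFD, beside 0.041% of all genes, and no gene of the 5 lists fell, beside 0.513%. The other named genes of the lists kept their direction, with adjusted p of 0.0773 for Cd163, 0.078 for Cd36, 0.156 for Timd4 and 0.206 to 0.582 for the rest.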

How the data were processed

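Total RNA libraries of 75 bp reads were made from the immune cell fraction of 12 livers. The authors aligned the reads to mm10 by STAR and took TPM from Qlucore Omics Explorer. The kit kept strand, and the versions and the strand setting of the counting are not given in the sources used here. The deposited score values are TPM on a linear scale with low values raised to 1.01, so the sum of a library, 1016762 to 1022495 in the 11 others than WT-NCD replicate 3, was not the exact TPM total. Counts and the depth reached by each library are not in the values, and count models were not used. Groups come from the sample titles, which number the mice of each group. Whether these were litter mates is not given.

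Values were compared as log2(TPM + 1) with limma 3.58.1 in R 4.3.3, with 1 spread for the 4 groups that could follow the mean. A gene was tested where 3 or more libraries were above the floor (19498 genes). All tests were two-sided, with Benjamini-Hochberg adjustment over all genes tested and a limit of 0.05. The 6 comparisons were the diet in WT mice, in Casp11-/- mice and averaged over both, the genotype on each diet, and the interaction. The members, the gene lists, the tests and the alternatives were chosen with earlier results of these data known, those on WT-NCD replicate 3 included. All members are named. Of the 5 pathway lists, genes with an adjusted p under 0.05 in any comparison are named, up to 5 a list by smallest p. Marker lists of 9 cell types are given as sums and counts. Likeness was Pearson's r over the 11 other libraries, among protein-coding genes over the floor in 6 or more of them. Gene positions are those of GENCODE vM21, and promoter windows those of RefSeq (GRCm38.p6). Summaries used Python 3.11.15 with pandas 2.3.3 and numpy 2.4.6. Replicate numbers did not pair the mice. Alternatives were other filters, pseudocounts, scalings, a replicate block, a spread from 2 groups alone, and each library left out in turn. Identical libraries were not found (0 pairs).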

Additional observations from a re-analysis of the deposited data

How the results depend on the processing

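The number of genes called moved with most settings. For the diet in WT mice it was 22 of all genes, and 72 with genes above the floor in every library, 39 and 5 with pseudocounts of 0.1 and 5, 10 with protein-coding genes rescaled, 8 with the highest 1% of genes removed, 0 with the spread of the 2 groups alone, 88 when rescaling was joined to leaving out WT-NCD replicate 3, and 1079 with neither WT-NCD replicate 3 nor Casp11-/- NCD replicate 2. In the same order of those that moved it, the count for Casp11-/- mice was 0, then 2 (every library), 2 (rescaled), 300 (spread of the 2 groups), 373 and 8767. For the averaged diet effect it was 108, then 601 (every library), 27 (pseudocount of 5), 439 (rescaled, of which 296 were higher and 143 lower, against 8 and 100), 26 (highest genes removed), 1523 and 8615. The genotype effect on NCD gave 0 and 77 without both libraries, that on HFD 0 and 15 with the spread of the 2 groups, and the interaction 0, 1 (every library) and 25 (without both). Leaving out 1 library at a time gave 0 to 391 genes in WT mice, 0 to 198 in Casp11-/- mice, 1 to 3289 averaged, 0 to 10 for the genotype on NCD, 0 for it on HFD and 0 to 1 for the interaction. The highest count came without WT-NCD replicate 3 in each case but the genotype on HFD.

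A replicate block gave 0 genes in WT mice, and 16 averaged. Same-numbered libraries of different groups had correlations of -0.64 to 0.47 in their deviations, with 7 of 18 pairs over 0.1, and 2 of 12 libraries were most like one of their own number, so the numbers were not taken to pair mice.

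Of the receptors' diet effects, those of Mrc1, Mertk, Msr1, Axl, Colec12 and Marco kept their direction under every alternative run. With none past the threshold, 4 receptors changed direction. For Scarb1 the averaged effect was -0.11 without WT-NCD replicate 3 and -0.22 without both libraries, that in WT mice was -0.15 in each case, and that in Casp11-/- mice was 0.54 with the highest genes removed, 0.49 with protein-coding genes rescaled (with or without WT-NCD replicate 3) and -0.29 to 0.18 with 1 library left out. With 1 library left out, Scarb1 ranged from -0.15 to 1.14 in WT mice and from -0.11 to 0.54 averaged. For Fcgr1 the WT effect was -0.0072 with a pseudocount of 5 and the Casp11-/- effect -0.15 without both libraries. With 1 library left out, Fcgr1 ranged from -0.16 to 0.39 averaged, -0.48 to 0.42 in WT and -0.15 to 0.72 in Casp11-/- mice. For Fcgr4 the Casp11-/- effect was -0.021 with a pseudocount of 5, -0.69 without both libraries and -0.69 to 0.70 with 1 left out. For Clec7a it was -0.42 without both and -0.42 to 1.14 with 1 left out. The cause was not tested. Beside the calls in the report, further calls on the receptors were Mrc1, Mertk, Msr1 and Axl averaged with genes above the floor in every library, Colec12 averaged without Casp11-/- NCD replicate 2, and Mrc1 in Casp11-/- mice with the spread of the 2 groups. Without read numbers, the precision of low values such as those of Marco and Fcgr1 cannot be given.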

Other observations

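The remaining marker lists, for the averaged diet effect without WT-NCD replicate 3, gave few calls, beside 1.07% of all genes that rose and 17.3% that fell. Of 9 dendritic cell markers 1 fell, none of 10 neutrophil markers and none of 10 hepatocyte markers passed the test, and of 10 stellate cell markers 8 were tested and 1 fell. Summed neutrophil markers ran from 302 to 1016 TPM in the 5 NCD libraries and from 116 to 4456 TPM in the 6 HFD libraries, and summed dendritic cell markers from 64.5 to 381 TPM and from 79.3 to 208 TPM.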
